A study of Homo sapiens with 18 samples.

Results

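Nuclear genes for subunits of the 5 complexes of oxidative phosphorylation were followed in PC-3 cells, a line derived from human prostate cancer, after a brief exposure to fluid shear stress. The genes were chosen by symbol alone: NDUFA, NDUFB, NDUFC, NDUFS and NDUFV genes of complex I, SDHA to SDHD of complex II, UQCR genes and CYC1 of complex III, COX5 to COX8 genes of complex IV, and ATP5 genes of complex V. This took 80 of the 28395 Gene IDs of the count table, of which 79 are protein coding and 1, ATP5F1EP2, is a pseudogene. Complex I had 36 members, complex II 4, complex III 9, complex IV 14 and complex V 17. The names leave out subunits with other symbols, such as COX4I1 and NDUFAB1, and the subunits encoded in mitochondrial DNA were not analysed here.

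Sheared cells had been passed in suspension through a syringe and a fine needle, and static cells were kept in suspension meanwhile without passage. Both were then held in wells coated against attachment and sampled at 3, 12 or 24 h, in a medium with insulin, transferrin, selenium and albumin that named no serum. Every group was thus detached, unmodified PC-3, and detachment itself is shared by sheared and static cells. Each of the 6 groups had 3 libraries of cytosolic RNA, and the sheared and static library of 1 replicate number at 1 time came from 1 pool of cells. The 9 pools are replicates of 1 cell line, and RNA from fewer cells cannot be told apart from less RNA per cell.

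Libraries held 16400487 to 25862360 counts. KRT8, KRT18, KRT19, EPCAM and CDH1, which mark epithelial cells, summed to 3262 to 9333 CPM (counts scaled to the library total with TMM factors), while KLK2, an androgen target, was at 0 in every library. Of 5 markers of fibroblasts and endothelium, PECAM1 reached 109 CPM and COL1A1 36.0 CPM, and the others stayed under 1 CPM. The 5 haematopoietic markers summed to no more than 1.42 CPM. The sheared 24 h library of replicate 3 stood apart, with a TMM factor of 0.721, 28.2% of its counts in its 100 most abundant genes and 68.4 CPM of the nuclear RNA MALAT1. At 24 h MALAT1 had 29.9 and 7.15 CPM in the other 2 sheared libraries, against 24.7, 13.7 and 10.8 CPM in static libraries. At 3 h the 3 sheared libraries had 14.4 to 15.1 CPM of it, against 23.9 to 29.5 CPM in static libraries. The part of these differences in the results below was not tested, and results at 24 h are also given without replicate 3. The labels date the 3 h batch apart from the batch of both later times, so the 3 h time and its batch cannot be told apart.

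The respiratory chain passes electrons from NADH (complex I) and succinate (complex II) through coenzyme Q to complex III, and by cytochrome c to complex IV, where oxygen is reduced. Complexes I, III and IV pump protons across the inner mitochondrial membrane, and complex V, the ATP synthase, lets them back to make ATP. Most subunits are encoded in the nucleus, translated in the cytosol and imported, and a few core subunits are made inside the mitochondrion. PC-3 cells grow without androgen and use both glycolysis and respiration.

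Of the 80 genes, 74 had enough counts to be tested. The other 6 were COX6A2 and ATP5MGL with 0 counts in all 18 libraries, and COX8C, ATP5F1EP2, COX7A1 and COX7B2 with 4, 6, 29 and 61 counts in all. Among the tested genes ATP5F1B, the catalytic beta subunit of the ATP synthase, had the highest mean level, 1188 CPM. The lowest were ATP5F1E at 1.02 CPM and COX6B2 at 2.89 CPM. Whether the low value of ATP5F1E, a subunit of the same ATP synthase, reflects its transcript level or reads lost in counting was not tested. Per kilobase of annotated transcript, COX8A led with 846 CPM per kilobase, followed by ATP5F1B with 646, COX6A1 with 641 and COX6C with 576 CPM per kilobase. The median level of the subunits was 122 CPM, against 21.9 CPM over all 15189 genes tested, and their median transcript length 931 bases, against 2796 bases.

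Sheared cells held slightly more transcript of most subunits, and the number past the test grew with time. At 24 h 31 of 74 subunits rose in sheared cells and 0 fell, at an adjusted p under 0.05 (edgeR quasi-likelihood test with pools as blocks, Benjamini-Hochberg adjustment over all genes). That is 41.9% of the subunits, where 9.13% of all genes tested rose and 8.07% fell. At 12 h 11 rose (14.9%) and 0 fell, where 6.29% of all genes rose and 4.55% fell. At 3 h 1 rose (1.35%) and 0 fell, near the 1.12% and 0.342% of all genes. Beside the 0 falls, 5, 40 and 53 of the 74 subunits had an unadjusted p under 0.05, in either direction, at 3, 12 and 24 h. Of all 15189 genes 1396, 3993 and 4776 did, a larger share than among the subunits at 3 h and a smaller one later. DESeq2 called 1, 15 and 37 subunits higher and 0 lower.

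The differences were small for a single gene and shared in sign. The median log2 fold change of the 74 subunits was 0.10 at 3 h, 0.25 at 12 h and 0.32 at 24 h, against 0.01, -0.01 and -0.02 over all genes. Values lay above 0 for 69, 70 and 71 subunits. In all 3 pools of a time, 42 subunits were higher in the sheared library at 3 h, 54 at 12 h and 61 at 24 h. These are 56.8%, 73.0% and 82.4% of the subunits, where 23.1%, 24.4% and 20.6% of all genes were. Each pool gave a median above 0: 0.11, 0.14 and 0.04 in the 3 h pools, 0.21, 0.41 and 0.12 in the 12 h pools, and 0.29, 0.35 and 0.37 in the 24 h pools.

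**Figure D1:**
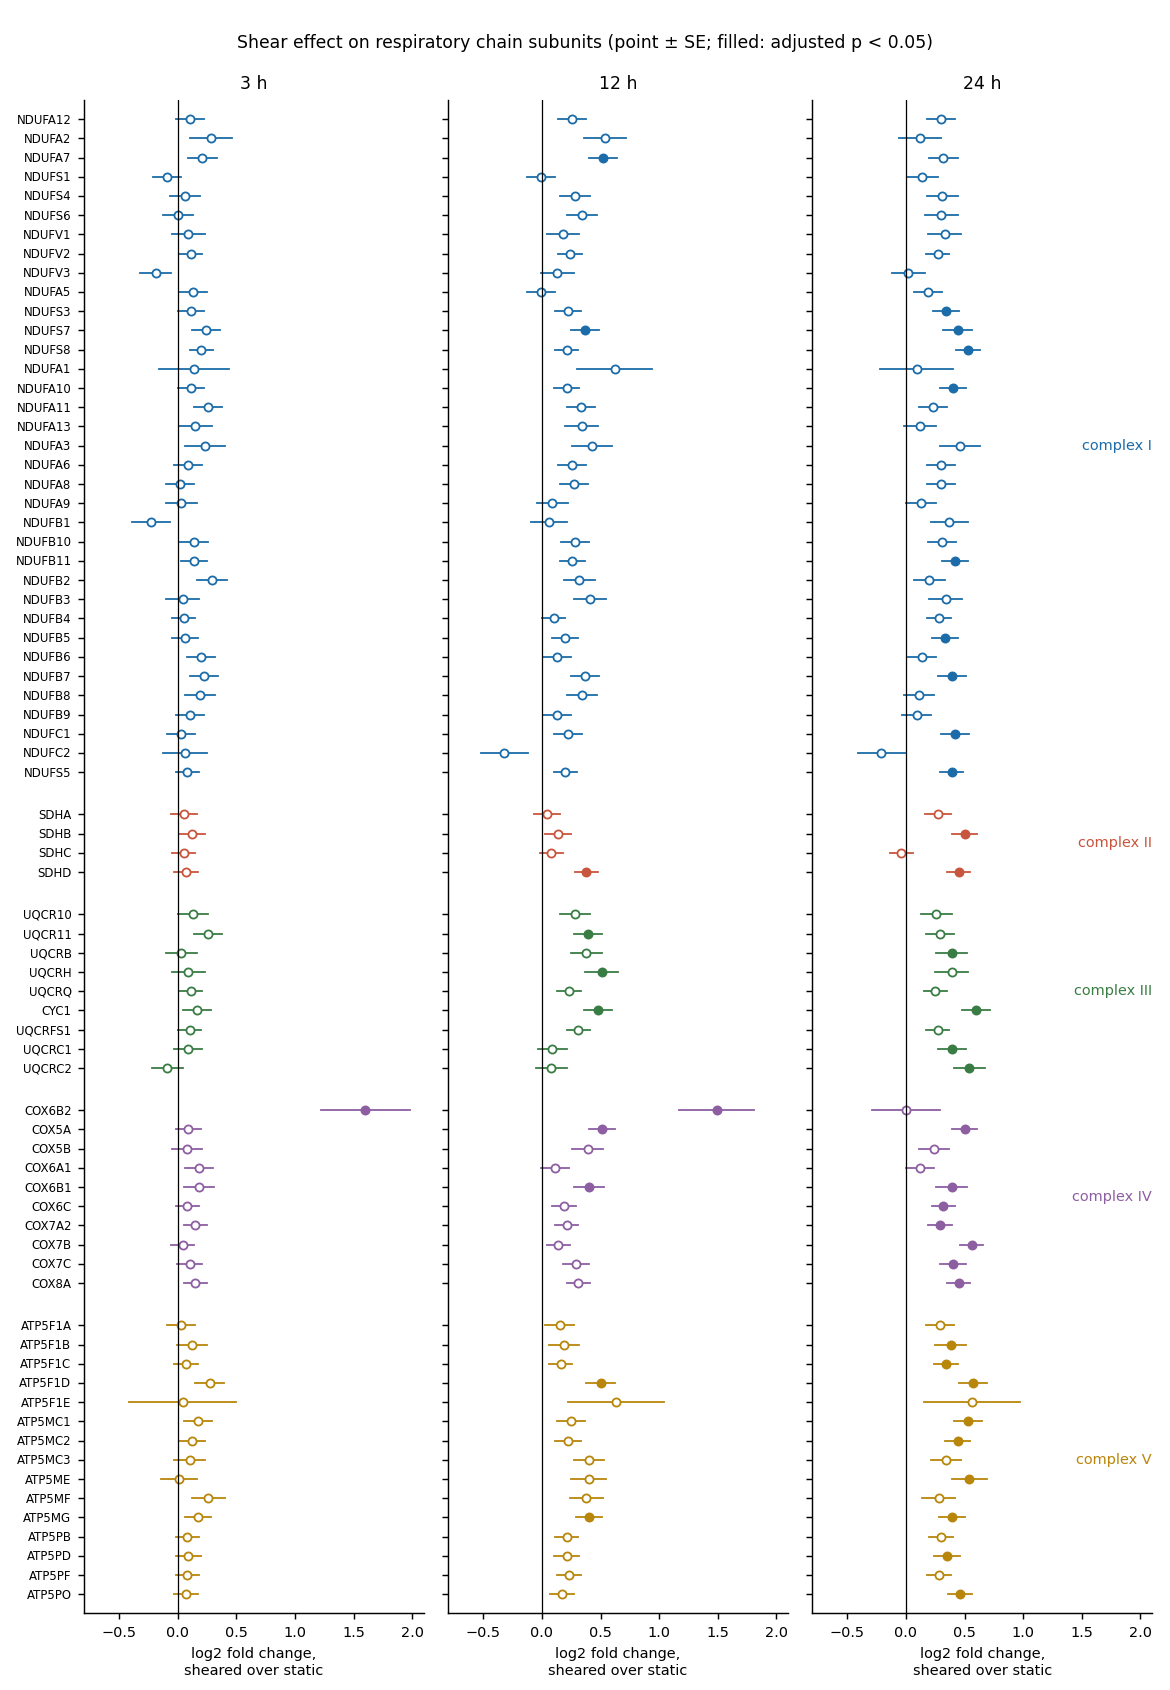
Log2 fold change, sheared over static, of the tested subunits named here (rows, by complex) at 3, 12 and 24 h; points show the estimate, lines ± 1 SE, and filled points an adjusted p under 0.05. Filled points number 1, 11 and 31, and all lie right of 0.

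The counts depended on the pools more than the medians did. Without 24 h replicate 1, 2 or 3 the rises at 24 h numbered 17, 24 or 19, of which 16, 24 and 18 were among the 31, with medians of 0.32 to 0.36 over all fits without 1 pair. Of the 31, 12 passed in each of the 9 fits without 1 pair: NDUFS8, NDUFS5, NDUFB11, SDHB, SDHD, CYC1, COX5A, COX7B, COX8A, ATP5F1D, ATP5MC1 and ATP5PO. At 12 h the rises numbered 3, 0 or 15 without 12 h replicate 1, 2 or 3 and 21 without 24 h replicate 3, and 0 of the 11 passed in all 9 fits. With no replicate block 0 subunits passed at any time, and a fit of the 6 libraries of each time alone gave 8, 11 and 3 rises. Scaling by total counts lowered the median of all genes by 0.15 at 12 h and 0.16 at 24 h. On that scale 4 subunits rose and 1 fell at 12 h and 11 rose at 24 h, and the total count scale moved their median and that of all genes by the same amounts. The authors' deposited tables, 1 per time, held 1, 3 and 7 of 74 subunits as higher and 0 as lower at the same adjusted p. There 0.796%, 3.11% and 5.98% of all genes with an adjusted p were higher.

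Pools differed from each other as well. At 24 h, of the 72 tested subunits with a mean of at least 10 CPM, 62 were lowest in replicate 1 among sheared libraries, and 66 were lowest in replicate 1 among static libraries. Replicate 3 held the highest value for 46 subunits in sheared libraries and 44 in static libraries. The highest library was at least 1.5 times the lowest for 32 of the 72 subunits in sheared and 15 in static libraries at 24 h (44.4% and 20.8%, where 59.8% and 23.9% of 9830 genes at that level were). At 3 h this held for 0 and 1 subunits.

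Promoters of the subunits were searched for short motifs of factors known from studies of respiratory genes: the NRF1 core CGCANGCG, the core of ETS factors such as GABPA, CCGGAAGT, and the YY1 core AAGATGGC, on both strands. The windows are those of RefSeq on GRCh38.p14, from 250 bases before the annotated start to 50 bases after it, 300 bases in all. RefSeq's table gave 73 windows for 61 of the 74 tested subunits. The NRF1 core was in 24 of the 73 (32.9%), against 10.0% of all 35116 windows and 12.8% of the 22199 of protein-coding genes. The ETS core was in 11 (15.1%, against 4.14% and 5.34%) and the YY1 core in 13 (17.8%, against 2.89% and 3.53%). At least 1 of the 3 was in 52.1% of the windows of the subunits, against 15.5% and 19.6%.

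Among the 23 genes with an NRF1 match 8 rose at 24 h, with a median log2 fold change of 0.30, and among the 38 without one 16 rose, with a median of 0.34. For the ETS core 3 of 11 genes with a match rose (median 0.29) and 21 of 50 without one (median 0.32). For the YY1 core the counts were 4 of 12 (0.32) and 20 of 49 (0.31). At 12 h 3 of 23 with an NRF1 match rose (median 0.26) and 6 of 38 without one (0.27), and for the YY1 core 2 of 12 (0.24) and 7 of 49 (0.26). For the ETS core 3 of 11 with a match rose at 12 h (0.31) and 6 of 50 without one (0.26), the opposite order to 24 h. A match describes letters and shows neither binding nor a cause. The 4 promoters printed here belong to subunits that passed in every fit without 1 pair at 24 h and hold a match, which stands in capitals.

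ATP5PO: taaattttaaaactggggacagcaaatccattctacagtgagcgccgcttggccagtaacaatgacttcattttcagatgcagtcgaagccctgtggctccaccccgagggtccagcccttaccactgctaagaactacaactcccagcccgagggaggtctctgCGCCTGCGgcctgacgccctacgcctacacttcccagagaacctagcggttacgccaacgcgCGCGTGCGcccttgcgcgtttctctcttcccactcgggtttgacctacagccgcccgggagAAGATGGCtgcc
SDHD: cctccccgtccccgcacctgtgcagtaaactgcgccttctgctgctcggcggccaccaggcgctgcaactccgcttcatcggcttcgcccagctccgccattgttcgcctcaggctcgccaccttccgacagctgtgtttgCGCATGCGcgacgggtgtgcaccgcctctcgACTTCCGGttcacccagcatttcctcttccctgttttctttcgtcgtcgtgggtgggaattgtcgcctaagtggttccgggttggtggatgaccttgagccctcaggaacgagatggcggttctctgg
COX8A: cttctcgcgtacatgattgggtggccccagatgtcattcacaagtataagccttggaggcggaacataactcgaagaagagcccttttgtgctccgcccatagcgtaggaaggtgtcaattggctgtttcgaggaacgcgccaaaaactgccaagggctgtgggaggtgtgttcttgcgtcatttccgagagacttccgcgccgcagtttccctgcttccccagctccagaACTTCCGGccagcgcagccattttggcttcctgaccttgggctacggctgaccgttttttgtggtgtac
SDHB: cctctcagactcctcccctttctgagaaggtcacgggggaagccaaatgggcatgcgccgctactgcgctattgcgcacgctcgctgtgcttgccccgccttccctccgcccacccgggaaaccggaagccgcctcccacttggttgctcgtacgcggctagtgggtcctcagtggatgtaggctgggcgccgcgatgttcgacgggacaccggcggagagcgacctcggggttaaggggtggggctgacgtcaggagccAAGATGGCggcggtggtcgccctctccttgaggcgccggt

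They lie at chr21:33915755-33916054 on the minus strand (ATP5PO), chr11:112086623-112086922 on the plus strand (SDHD), chr11:63974370-63974669 on the plus strand (COX8A) and chr1:17053983-17054282 on the minus strand (SDHB) of GRCh38.p14, each written in the direction of its gene. With the start site as base 1 and the base before it as -1, the ATP5PO window holds NRF1 cores of the other strand that begin at -85 and -23, and a YY1 core at 39. The SDHD window holds an NRF1 core at -109, which reads alike on both strands, and an ETS core of the other strand at -78. COX8A has an ETS core on the other strand at -19, and SDHB a YY1 core at 11.

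Complex I, which oxidises NADH, had the most members and the smallest share that passed. At 24 h 9 of its 36 subunits rose and at 12 h 2, with medians of 0.30 and 0.25. Of the 9 subunits of the N module, which takes up the electrons of NADH, 0 passed at 24 h, although all 9 lay above 0 with a median of 0.30. Of the 9, 6 had an unadjusted p under 0.05 in edgeR, and DESeq2 called 0. Of the 5 subunits of the Q module, which hands electrons to coenzyme Q, 3 rose at 24 h, and of the 22 other accessory subunits 6 did. No difference between modules was tested.

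NDUFS8, an iron-sulfur subunit of the Q module, had 211, 326 and 389 CPM in sheared cells at 24 h, against 159, 226 and 246 CPM in static cells. Every sheared library lay above the static library of its pool and the groups overlapped. The log2 fold change was 0.53 ± 0.10 (SE, adjusted p = 0.00204, edgeR with pools as blocks). At 12 h it had 207, 200 and 193 CPM in sheared cells, against 172, 179 and 170 CPM in static cells, and there the difference of 0.21 ± 0.10 did not pass (adjusted p = 0.223). NDUFS7, which carries the last iron-sulfur cluster before coenzyme Q, rose by 0.37 ± 0.12 at 12 h (adjusted p = 0.0499), near the threshold. At 24 h it rose by 0.44 ± 0.12 (adjusted p = 0.0152). Its 12 h call passed in 3 of the 9 fits without 1 pair, and its 24 h call in 8.

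NDUFA7, an accessory subunit of the N module, had the smallest p of complex I at 12 h. Its level was 50.2, 67.3 and 65.3 CPM in sheared cells, against 38.7, 36.8 and 52.9 CPM in static cells, higher in each pool with 1 static library inside the sheared range. The log2 fold change was 0.52 ± 0.12 (adjusted p = 0.0114), and the call was lost without 12 h replicate 2 (adjusted p = 0.153). Its exons overlap those of RPS28, a ribosomal protein gene on the opposite strand, and the strand setting of the counting is not given in the sources used here, so reads of the 2 genes cannot be told apart. Exons of 44 of the 80 members overlap those of another gene in GENCODE 29, 32 of them a gene on the opposite strand.

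The few subunits below 0 belonged mostly to complex I. NDUFC2, an accessory subunit of the membrane arm, lay below 0 at both 12 h and 24 h and did not pass. Its log2 fold change was -0.32 ± 0.20 at 12 h (adjusted p = 0.312) and -0.21 ± 0.20 at 24 h (adjusted p = 0.504). NDUFC2 shares exons with the readthrough gene NDUFC2-KCTD14, so its counts are uncertain.

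Complex II, succinate dehydrogenase, is made of 4 nuclear-encoded subunits only and also works in the TCA cycle. SDHB, its iron-sulfur subunit, had 104, 153 and 194 CPM in sheared cells at 24 h, against 82.5, 116 and 114 CPM in static cells. SDHD, a membrane anchor, had 143, 175 and 197 CPM in sheared cells, against 108, 131 and 136 CPM in static cells. Each pool was higher after shear for both genes. The groups did not overlap for SDHD, while the lowest sheared library lay inside the static range for SDHB. SDHB rose by 0.50 ± 0.11 (adjusted p = 0.00614) and SDHD by 0.45 ± 0.10 (adjusted p = 0.00434).

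SDHD was also higher at 12 h, with 166, 174 and 172 CPM in sheared cells, against 127, 130 and 135 CPM in static cells. There the groups did not overlap, and the log2 fold change was 0.38 ± 0.10 (adjusted p = 0.0183), a call lost without any 1 of the 12 h pairs (adjusted p up to 0.11). TIMM8B, an import chaperone gene, overlaps SDHD on the opposite strand. SDHC, the other anchor, had 153, 179 and 169 CPM in sheared cells at 24 h, against 169, 185 and 161 CPM in static cells, and the groups overlapped (-0.04 ± 0.10, adjusted p = 0.847). SDHA, the flavoprotein that oxidises succinate, had 198, 238 and 322 CPM in sheared cells, against 161, 223 and 239 CPM in static cells, and its 0.27 ± 0.11 did not pass (adjusted p = 0.107).

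**Figure D2:**
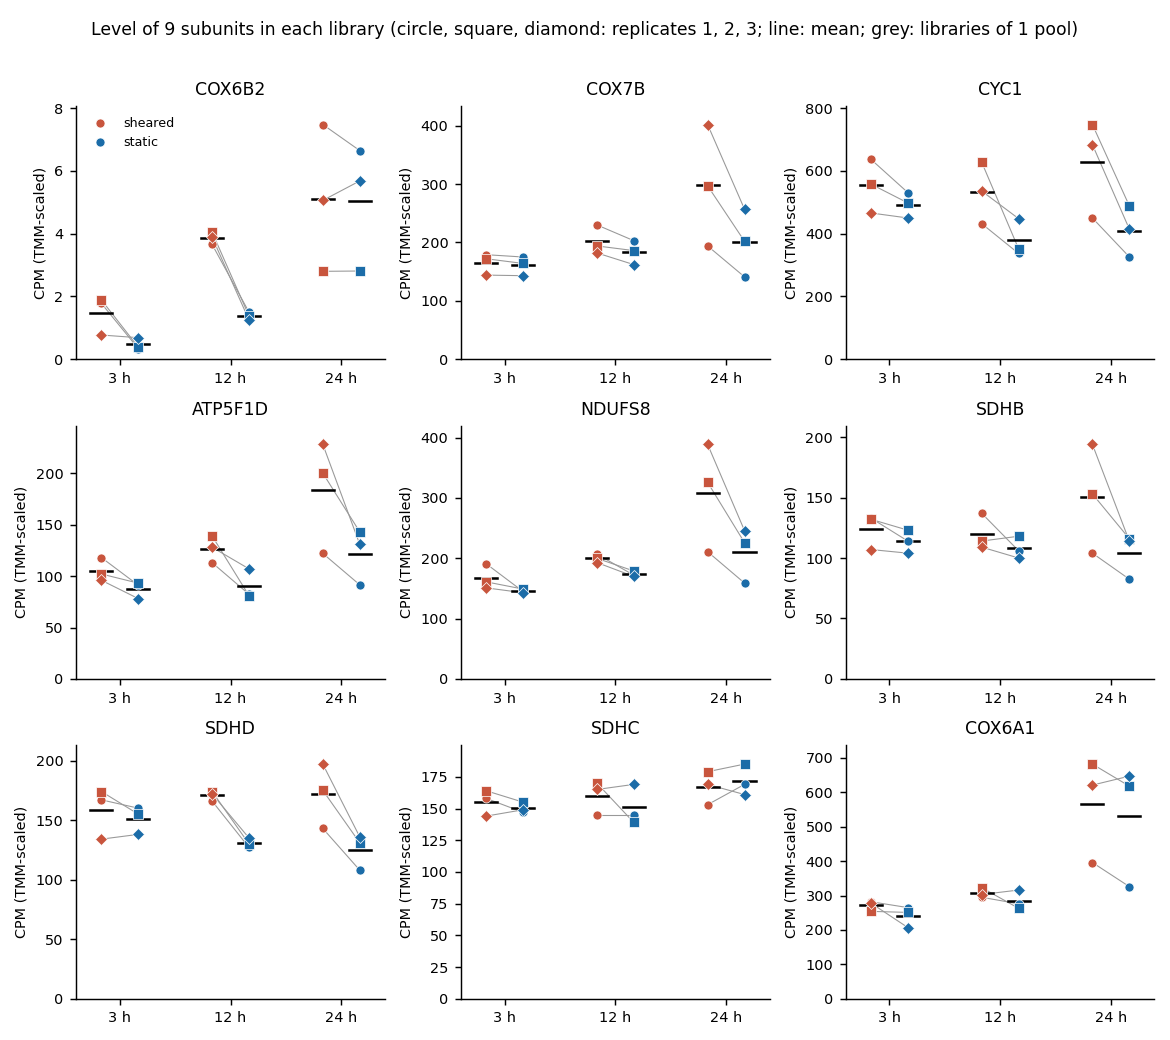
Level of 9 subunits in each library, in TMM-scaled CPM, at 3, 12 and 24 h, with sheared libraries left of static ones; marker shapes are replicates, black lines means of 3, and grey lines join the libraries of 1 pool. At 24 h the grey lines of COX7B, CYC1, ATP5F1D, NDUFS8, SDHB and SDHD all slope down toward static cells, and those of COX6B2, SDHC and COX6A1 run both ways.

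Complex III, which moves electrons from coenzyme Q to cytochrome c, had 4 of 9 subunits that rose at 24 h and 3 at 12 h, with medians of 0.39 and 0.31. CYC1, the cytochrome c1 subunit, had 450, 748 and 684 CPM in sheared cells at 24 h, against 326, 489 and 415 CPM in static cells. Sheared libraries were higher in each pool, and 1 sheared library lay within the static range. CYC1 rose by 0.60 ± 0.12 at 24 h (adjusted p = 0.00208), the largest fold change of any subunit that passed at that time. At 12 h it had 432, 628 and 536 CPM in sheared cells, against 337, 352 and 448 CPM in static cells, and rose by 0.48 ± 0.12 (adjusted p = 0.0147), a call lost without 12 h replicate 1 or 2.

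The core proteins UQCRC1 and UQCRC2, which form the matrix face of the complex, passed at 24 h (0.39 ± 0.12 and 0.54 ± 0.13) and lay at 0.09 and 0.08 at 12 h. UQCRC2 had 100, 95.5 and 182 CPM in sheared cells at 24 h, against 62.4, 89.1 and 101 CPM in static cells, and the high value belongs to the replicate 3 library that stands apart. Its call was lost without 24 h replicate 1 or 3 and passed in the other 7 fits without 1 pair. UQCRH, the hinge protein that binds cytochrome c1, passed at 12 h and not at 24 h. For these 3 genes the effects at 12 h and 24 h did not differ past the threshold. At 12 h UQCRH had 253, 415 and 338 CPM in sheared cells, against 207, 199 and 299 CPM in static cells, a rise of 0.51 ± 0.14 (adjusted p = 0.0231) with 1 sheared library inside the static range. The call was lost without 12 h replicate 1 or 2 (adjusted p = 0.0543 and 0.286). At 24 h its 0.39 ± 0.14 did not pass (adjusted p = 0.0562). UQCRHL is a near-identical copy of UQCRH at 2.25 CPM, and the counting could have split reads between them.

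Complex IV, cytochrome c oxidase, had the largest share of tested subunits that rose at 24 h, 7 of 10, and 3 of 10 rose at 12 h. COX7B, a small subunit of its membrane part, had 194, 297 and 402 CPM in sheared cells at 24 h, against 141, 202 and 257 CPM in static cells. All pools were higher after shear and the ranges overlapped. Its rise of 0.56 ± 0.10 had the smallest p of all subunits at 24 h (adjusted p = 8.51e-04) and passed without any 1 pair (adjusted p at most 0.00385). At 12 h it had 230, 194 and 182 CPM in sheared cells, against 203, 186 and 162 CPM in static cells (0.14 ± 0.10, adjusted p = 0.405). At 3 h the levels were 179, 172 and 144 CPM in sheared cells, against 175, 164 and 143 CPM in static cells (0.04 ± 0.10, adjusted p = 0.962).

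COX5A, a subunit on the matrix side, had groups that did not overlap at either later time. It had 123, 159 and 184 CPM in sheared cells at 24 h, against 87.2, 119 and 122 CPM in static cells, and rose by 0.50 ± 0.11 (adjusted p = 0.00454). At 12 h it had 99.8, 131 and 121 CPM in sheared cells, against 76.9, 75.4 and 94.9 CPM in static cells, and rose by 0.51 ± 0.11 (adjusted p = 0.00698), a call lost without 12 h replicate 2 (adjusted p = 0.0957). COX8A, the most abundant subunit per length, had 505, 693 and 776 CPM in sheared cells at 24 h, against 356, 521 and 570 CPM in static cells, a rise of 0.45 ± 0.10 (adjusted p = 0.00578) seen in each pool.

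Several complex IV subunits exist as pairs of isoforms from separate genes, one used in most tissues and the other in heart, muscle or testis. The broadly expressed members made up nearly all of the counts here. COX6A1 averaged 367 CPM, against 0 CPM of its muscle isoform COX6A2, and COX7A2, COX7B and COX8A exceeded COX7A1, COX7B2 and COX8C, each of which had no more than 11 counts in any library. COX6A1 did not pass at any time, with 0.18 ± 0.12 at 3 h, 0.11 ± 0.12 at 12 h and 0.12 ± 0.12 at 24 h. COX7A2 passed at 24 h alone (0.29 ± 0.10, adjusted p = 0.0457), in 2 of the 9 fits without 1 pair. The c subunit of the ATP synthase ring is encoded by 3 genes for 1 mature protein, and at 24 h ATP5MC1 (0.53 ± 0.12) and ATP5MC2 (0.44 ± 0.11) passed and ATP5MC3 (0.34 ± 0.13, adjusted p = 0.0723) did not.

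COX6B2, the testis isoform of subunit 6B, followed a course of its own. At 3 h it had 1.78, 1.89 and 0.770 CPM in sheared cells, against 0.337, 0.385 and 0.684 CPM in static cells. The groups did not overlap, though in replicate 3 they were close, and the log2 fold change was 1.60 ± 0.38 (adjusted p = 0.0418). At 12 h the levels were 3.66, 4.05 and 3.89 CPM in sheared cells, against 1.50, 1.38 and 1.25 CPM in static cells, a rise of 1.49 ± 0.32 (adjusted p = 0.00643) with widely separate groups. At 24 h they were 7.48, 2.80 and 5.06 CPM in sheared cells, against 6.65, 2.81 and 5.68 CPM in static cells, with a fold change of 0.00 ± 0.29 (adjusted p = 0.994).

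Static cells thus held more COX6B2 at 24 h than at 12 h, by 1.86 ± 0.35 on the log2 scale (adjusted p = 8.09e-04), and sheared cells by 0.39, which did not pass (adjusted p = 0.605). The gene had a mean of 52.8 counts per library and shares exons with an unnamed gene model, so its levels are less certain than those of its paralog. COX6B1, that paralog, rose by 0.40 ± 0.13 at 12 h (adjusted p = 0.0498) and by 0.39 ± 0.13 at 24 h (adjusted p = 0.0396), near the threshold both times. Leaving out 12 h replicate 2 lowered its 12 h value to 0.17 (adjusted p = 0.474), and without any 1 of the 24 h pairs its 24 h call was lost. Of the 9 fits without 1 pair, COX6B1 passed in 3 at 12 h and in 2 at 24 h. The 3 h call of COX6B2 was lost without 3 h replicate 1 or 2, without any 12 h pair and without 24 h replicate 1 (adjusted p up to 0.586). The 12 h call was lost without 12 h replicate 2 (adjusted p = 0.0815).

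Complex V, the ATP synthase, had 9 of 15 tested subunits that rose at 24 h and 2 at 12 h, with estimates above 0 for all 15 at each time and medians of 0.09, 0.23 and 0.38 at 3, 12 and 24 h. ATP5F1D, the delta subunit of the rotating central stalk, had 122, 200 and 228 CPM in sheared cells at 24 h, against 91.5, 143 and 131 CPM in static cells. It rose by 0.57 ± 0.12 (adjusted p = 0.00289). At 12 h it had 113, 139 and 128 CPM in sheared cells, against 82.3, 81.0 and 107 CPM in static cells, with no overlap, and rose by 0.50 ± 0.12 (adjusted p = 0.0117). That call was lost without 12 h replicate 1 or 2.

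ATP5PO, which ties the stator to the catalytic head, had 265, 336 and 426 CPM in sheared cells at 24 h, against 195, 254 and 292 CPM in static cells, a rise of 0.46 ± 0.10 (adjusted p = 0.0036). ATP5MC1 had 51.0, 110 and 95.4 CPM in sheared cells, against 39.8, 69.3 and 65.3 CPM in static cells, a rise of 0.53 ± 0.12 (adjusted p = 0.00567). Both were higher in every pool, with the lowest sheared library inside the static range. ATP5F1B, the beta subunit that makes ATP, had 819, 1380 and 1732 CPM in sheared cells, against 785, 1160 and 973 CPM in static cells. Its rise of 0.38 ± 0.13 was near the threshold (adjusted p = 0.0491) and passed in 2 of the 9 fits without 1 pair. Its highest value belongs to the replicate 3 library that stands apart. ATP5MG, a membrane subunit, rose at 12 h (0.40 ± 0.11, adjusted p = 0.0232) and 24 h (0.39 ± 0.11, adjusted p = 0.0181), and the calls were lost without 12 h replicate 1 or 2 at 12 h and without 24 h replicate 1 at 24 h.

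**Figure D3:**
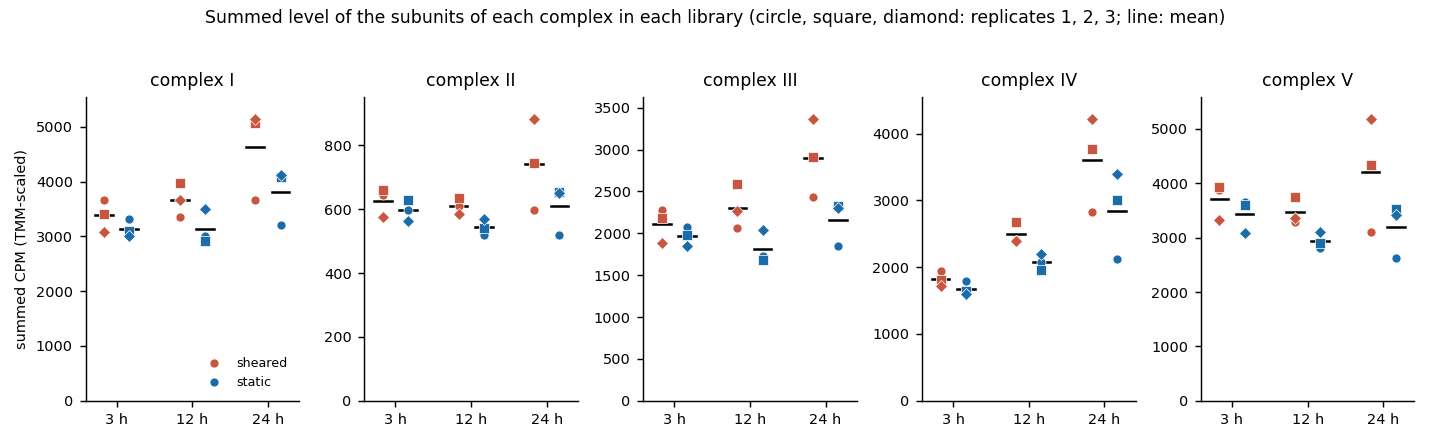
Summed TMM-scaled CPM of the subunits of each complex in each library at 3, 12 and 24 h, with sheared libraries left of static ones; marker shapes are replicates and lines means of 3. At 24 h complex IV averaged 3602 CPM in sheared and 2841 CPM in static cells, and sheared exceeded static cells in each pool for every complex.

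Summed over the subunits, the levels showed the same order. At 24 h all subunits together had 16085 ± 3142 CPM in sheared and 12604 ± 1993 CPM in static cells (mean ± SD, n = 3 each), with log2 ratios of 0.29, 0.31 and 0.43 in the 3 pools. At 12 h they had 12543 ± 978 CPM in sheared and 10518 ± 781 CPM in static cells, with ratios of 0.21, 0.44 and 0.10. As a share of all counts the subunits took 1.37% ± 0.252 in sheared and 1.2% ± 0.16 in static cells at 24 h, and 1.24% ± 0.0964 and 1.15% ± 0.0665 at 12 h in the same order. At 3 h the shares were 1.22% ± 0.0827 in sheared and 1.18% ± 0.054 in static cells. The mean log2 ratios of the shares were 0.06, 0.10 and 0.18 at 3, 12 and 24 h, lower than those of the TMM-scaled sums, 0.10, 0.25 and 0.35.

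Whether the shear effect itself changed with time was tested in the same model. From 12 h to 24 h, 0 subunits had a larger and 0 a smaller effect past the threshold (0.586% and 0.079% of all genes did), 6 had an unadjusted p under 0.05, and DESeq2 called 0. From 3 h to 12 h the counts were also 0 and 0 (0.514% and 0.895% of all genes), with 3 at an unadjusted p under 0.05 and 0 by DESeq2. Between 3 h and 24 h 1 subunit had a larger effect and 0 a smaller one (3.08% and 2.81% of all genes). There 14 had an unadjusted p under 0.05, and DESeq2 called 2 larger and 1 smaller. The 1 in edgeR was COX7B, with a difference of 0.52 ± 0.14 (adjusted p = 0.0319). Of all 15189 genes 1256, 2000 and 2939 had an unadjusted p under 0.05 in these comparisons, in the same order. The subunits' share was smaller from 3 h to 12 h and about the same in the others. The drop of the COX6B2 effect from 12 h to 24 h, -1.48 ± 0.43, did not pass (adjusted p = 0.192), nor did that from 3 h, -1.59 ± 0.48 (adjusted p = 0.06). The larger number of rises at 24 h than at 12 h is therefore not a tested difference for any single subunit.

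Across the 74 subunits the 24 h effect exceeded the 12 h effect in 50, and 69 lay above 0 at both times. The correlation of the 2 effects across subunits was 0.20 (Pearson) and 0.24 (Spearman), and 0.46 and 0.29 without COX6B2. The genes share their libraries and are not independent points. Of the subunits that rose, 7 did so at both 12 h and 24 h: NDUFS7, SDHD, CYC1, COX5A, COX6B1, ATP5F1D and ATP5MG, which is 7 of 11 at 12 h and 7 of 31 at 24 h.

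**Figure D4:**
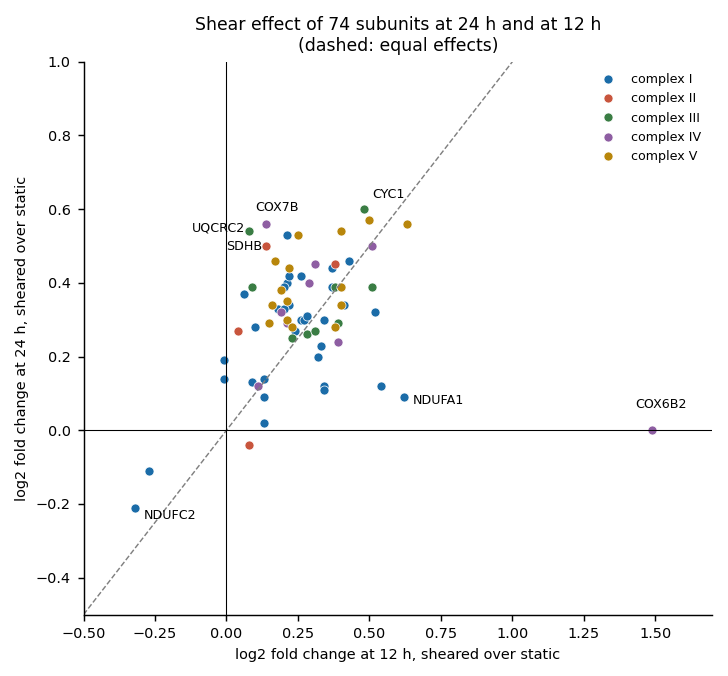
Log2 fold change, sheared over static, of the 74 tested subunits at 24 h (vertical axis) and 12 h (horizontal axis), coloured by complex; the dashed line marks equal effects. COX6B2 stands alone at 1.49 and 0.00, and 50 points lie above the line.

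Time in suspension was compared in static cells and in sheared cells apart, with libraries that the shear comparisons also use. In static cells 19 subunits were higher at 24 h than at 12 h (25.7%, where 16.9% of 14804 genes were) and 1 was lower (1.35%, where 15.6% were). The median log2 fold change was 0.24, against 0.01 over all genes. Complex IV held 7 of the 19, out of 10 tested, and complex I 8 of 36. COX6A1 had 326, 618 and 647 CPM in static cells at 24 h, against 276, 263 and 316 CPM at 12 h, a rise of 0.88 ± 0.20 (adjusted p = 0.00368). NDUFA7 had 61.5, 77.4 and 80.2 CPM at 24 h, against 38.7, 36.8 and 52.9 CPM at 12 h, with no overlap (0.76 ± 0.15, adjusted p = 0.0013).

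NDUFA5, a Q module subunit, was the 1 that fell, with 65.0, 63.9 and 66.3 CPM at 24 h, against 80.4, 85.1 and 76.4 CPM at 12 h (-0.32 ± 0.11, adjusted p = 0.0404), a call lost in 6 of the 9 fits without 1 pair. The count of 19 was 4 without 12 h replicate 1 or 2, 33, 8 or 7 without 24 h replicate 1, 2 or 3, 12 without 3 h replicate 1, and 5 with total count scaling, where the median was 0.05. In sheared cells 1 subunit, COX6A1, was higher at 24 h (396, 682 and 621 CPM) than at 12 h (295, 323 and 303 CPM), by 0.87 ± 0.20 (adjusted p = 0.0407), also lost in 6 of the 9 fits. The rises among all genes were 1.75% and the falls 0.797% of 14672 in sheared cells. The subunits' median of 0.31 there was above that in static cells although fewer passed, and 13 passed without 24 h replicate 1.

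Related genes were counted list by list, where 6.29% of all genes rose at 12 h and 9.13% at 24 h, 4.55% and 8.07% fell, and the median of all genes was -0.01 and -0.02. Of 10 tested subunits and partners with other symbols, 3 rose at 12 h and 3 at 24 h, with medians of 0.29 and 0.34. ATP5MJ, a small ATP synthase subunit, rose by 0.52 ± 0.10 at 24 h (adjusted p = 0.00157) and ATP5MK by 0.43 ± 0.10. CYCS, cytochrome c itself, rose by 0.47 ± 0.12 at 12 h (adjusted p = 0.0226), and its 0.36 at 24 h did not pass (adjusted p = 0.0545). COX4I1, the broadly expressed subunit 4, lay at 0.32 and 0.31 at 12 h and 24 h and did not pass.

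Assembly factors, which build the complexes without being part of them, had lower medians at 24 h. Of 19 factors of complex I 2 rose at 24 h, ECSIT (0.56 ± 0.15) and NDUFAF2 (0.56 ± 0.17), with a list median of 0.15. Of 25 of complex IV 2 rose, CMC2 (0.62 ± 0.16) and the copper chaperone COX17 (0.41 ± 0.11), with a median of -0.02. Of 13 of complexes II and III 1 rose, UQCC2 (0.42 ± 0.14), and TTC19, which clears fragments of the Rieske protein, fell (-0.48 ± 0.10, adjusted p = 0.00366). Of 5 of complex V 0 passed in edgeR, 1 had an unadjusted p under 0.05 and DESeq2 called 0. At 12 h the rises in these 4 lists numbered 3, 4, 1 and 0 in the same order. Their 12 h medians were 0.20, 0.23, 0.26 and -0.04, against 0.25 for the subunits, so the lower medians at 24 h were not general to both times. The 2 of 19 and 2 of 25 at 24 h lay near the 9.13% of all genes that rose, so these counts say nothing particular of the lists.

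The TCA cycle, which feeds electrons to the chain, had 3 of 14 genes that rose at 24 h, MDH2 (0.45 ± 0.11), CS (0.45 ± 0.12) and SUCLG1 (0.43 ± 0.13), where 9.13% of all genes rose. At 12 h 0 passed in edgeR, with 0 at an unadjusted p under 0.05 and 0 by DESeq2. Of 13 genes of coenzyme Q synthesis 0 passed at 12 h or 24 h, where 2 and 0 had an unadjusted p under 0.05 and DESeq2 called 0. Mitochondrial import had 5 of 20 genes that rose at 12 h, TIMM13 (0.61 ± 0.12) and TOMM5 (0.54 ± 0.12) among them, where 6.29% of all genes rose, and 3 at 24 h, where 9.13% rose. Mitochondrial ribosomal proteins, which make the subunits encoded in mitochondrial DNA, had 16 of 77 that rose at 12 h and 10 that rose and 1 that fell at 24 h, with medians of 0.23 and 0.17. MRPL12 rose at both times, by 0.68 ± 0.11 and 0.55 ± 0.11. Cytosolic ribosomal proteins had larger medians than the subunits, 0.56 at 12 h and 0.53 at 24 h, and 75 and 72 of 82 rose.

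Of 19 regulators of respiratory genes and mitochondrial DNA, 1 rose and 2 fell at 12 h, and 2 fell at 24 h, with medians of 0.05 and -0.16. Of all genes 6.29% rose and 4.55% fell at 12 h and 8.07% fell at 24 h, so counts of 1 or 2 of 19 say nothing particular of this list, and the genes named are given for their own values. ESRRA, an orphan receptor that activates respiratory genes, rose at 12 h (0.49 ± 0.14, adjusted p = 0.0303), and its relative ESRRG fell (-1.14 ± 0.28). GABPA, the ETS factor whose core was searched above, fell at 12 h (-0.43 ± 0.13, adjusted p = 0.0369). Its 3 h value of -0.49 ± 0.12 did not pass (adjusted p = 0.0663). At 24 h TFB2M, a transcription factor of mitochondrial DNA, fell by 0.47 on the log2 scale (adjusted p = 0.0197) and MIEF1, a regulator of mitochondrial fission, by 0.64 (adjusted p = 0.0202).

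**Figure D5:**
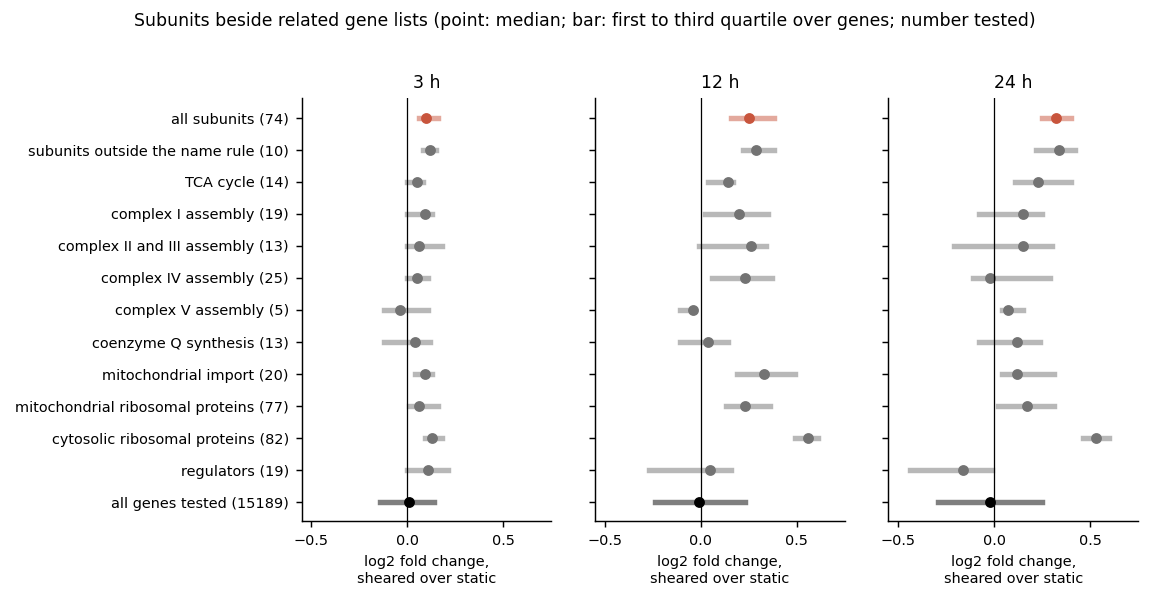
Log2 fold change, sheared over static, of the subunits (top), related gene lists and all genes tested (bottom) at 3, 12 and 24 h; points are medians over genes, bars run from the first to the third quartile, and numbers in brackets are genes tested. The subunits' median is 0.10, 0.25 and 0.32, below that of cytosolic ribosomal proteins at 12 h and 24 h and above that of all genes.

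Transcript length went along with the effect of shear. Across the subunits the Spearman correlation of log2 fold change with annotated transcript length was -0.31 at 3 h, -0.36 at 12 h and -0.13 at 24 h, so shorter transcripts had the higher values. Across all 14733 genes with a length it was -0.22, -0.23 and -0.17. The part of length in the results was not tested. With mean level the correlation across subunits was 0.06, -0.12 and 0.18 at the 3 times.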

How the data were processed

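Sheared and static PC-3 cells were compared in 18 RNA-seq libraries, 3 for each treatment and time. Per the submitters' processing notes the aligner was STAR and the genome GRCh38.p13, and the authors deposited raw counts per Gene ID. Not given in the sources used here are the counter, its strand setting, the annotation and the versions. The authors' deposited tables of each time hold log2 fold changes, p-values, a score (the test statistic) and mean normalised signal from DESeq2, per the file headers and the submitters' processing notes. Columns of the 3 h libraries were matched to samples by time and letter.

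Counts were tested with edgeR 4.0.16 (quasi-likelihood test, TMM scaling, filterByExpr with a minimum count of 10 and total of 15) in R 4.3.3. The model held 9 pools as blocks and 1 shear effect for each time, with 6 residual degrees of freedom, and p-values were adjusted by Benjamini-Hochberg over all 15189 genes. Static and sheared cells at 24 h and 12 h were compared without blocks. All CPM are scaled by TMM factors. The blocks follow the series' design, in which 1 pool gave both libraries of a replicate number. Within a pool, deviations from the group means had correlations between 0.379 and 0.504 in the 24 h libraries. The 3 h pools gave 0.0881 to 0.299, and the 12 h pools -0.148 to 0.245. Mismatched libraries, 1 sheared and 1 static from different pools of a time, gave at most -0.0924 in the 24 h set. In the 3 h set their highest value was 0.13, above the lowest matched one. In the 12 h set it was 0.233, above the matched 0.199 of replicate 3 and -0.148 of replicate 2. Every matched pair thus exceeded all mismatched ones only in the 24 h set. Counting noise did not account for the spread of replicates, with a chi-square over its degrees of freedom between 4.3 and 134, and none was treated as a duplicate. The p-values of shear measure how much the difference of sheared and static cells varied between pools of 1 line. Those of 24 h against 12 h, without blocks, measure the spread between the pools themselves.

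Transcript lengths are medians over the best ranked GENCODE 29 transcripts of a gene, protein-coding ones first and then by the tag for principal isoforms. The tests were checked on simulated data. Alternatives were DESeq2 1.42.0, other scalings, no filter, no block, the libraries of 1 time alone and leaving out each pair. Values per library are given for members named by rank of p at each time, by complex and by difference between times, and for isoform pairs and complex II. The name rule, gene lists and motifs were chosen with earlier results of these data known. The values of 1 tested subunit enter the counts and medians and are not reported here by name.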

Additional observations from a re-analysis of the deposited data

Results flagged for a closer look

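COX7B, a small subunit of complex IV, stood out because its shear effect at 24 h exceeded that at 3 h by 0.52 ± 0.14 on the log2 scale in a test of the difference itself (adjusted p = 0.0319, edgeR with pools as blocks). The effect was 0.56 at 24 h, with the sheared library higher in 3 of 3 pools, and 0.04 at 3 h, also higher in 3 of 3 pools. The adjusted p was 0.0251 to 0.136 over the fits without 1 pair, and the call was lost without any 3 h pair and without 12 h replicate 1. It was also lost with total count scaling (0.0913), with no filter on low counts (0.0569) and with no replicate block (0.568). Time and batch date cannot be told apart in this difference. With groups of 3 libraries, no search for single outlying libraries was made.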

How the results depend on the processing

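The sign of the subunits' medians held in every setting run, and the counts of calls did not. With no replicate block 0 subunits rose at 3, 12 or 24 h, and 0 differed between 24 h and 3 h; for comparison, the paired fit gave 1, 11, 31 and 1. The libraries of 1 time alone gave 8 rises at 3 h and 3 at 24 h. Total count scaling gave 0 rises at 3 h, 4 rises and 1 fall at 12 h (median 0.10) and 11 rises at 24 h (median 0.16). On that scale 150, 425 and 782 of all genes rose at 3, 12 and 24 h, and 63, 1441 and 2410 fell. Total count scaling also left 0 larger effects at 24 h than at 3 h (median 0.11). It gave 5 rises and 2 falls from 12 h to 24 h in static cells and 0 rises in sheared cells. With no filter on low counts 20 rose at 12 h, 1 had a smaller effect at 24 h than at 12 h and 1 than at 3 h, and 0 fell with time in static cells. DESeq2 called 2 larger and 1 smaller effects at 24 h than at 3 h, and 4 rises with time in sheared cells. The log2 ratio of the subunits' share of counts was 0.06, 0.10 and 0.18 at 3, 12 and 24 h. As TMM-scaled sums it was 0.10, 0.25 and 0.35. Without the 100 most abundant genes of each library it was 0.06, 0.22 and 0.21. Those 100 genes were picked per library and could include subunits. For complex V in 12 h replicate 1 the ratio was 0.70 that way, against 0.04 as a share of all counts. Over the fits without 1 pair the rises ranged from 0 to 1 at 3 h, 0 to 21 at 12 h (falls 0 to 1) and 17 to 39 at 24 h (medians 0.32 to 0.36). Larger effects at 24 h than at 3 h ranged from 0 to 2 and smaller ones from 0 to 1. Rises with time ranged from 4 to 33 in static cells (falls 0 to 2) and 0 to 13 in sheared cells. The cause of these changes was not tested. Low counts limit COX6B2 and ATP5F1E, with means of 52.8 and 19.1, and the 6 subunits not tested. The reason for the low counts was not tested.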

Other observations

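NDUFA1 and NDUFA2 varied widely between pools at 12 h. NDUFA1, a small membrane subunit of complex I, had 39.0, 115 and 93.1 CPM in sheared cells, against 36.7, 31.5 and 95.4 CPM in static cells. The highest library was 2.94 times the lowest in sheared cells and 3.03 times in static cells. NDUFA2, a subunit of the N module, had 42.1, 72.8 and 67.0 CPM in sheared cells, against 34.6, 29.4 and 65.3 CPM in static cells, with ratios of 1.73 and 2.22. For both genes replicate 2 was high after shear and low without it, while replicate 3 was high in both treatments. The 2 genes were picked after their values were seen. At 12 h the highest static library was replicate 3 for 52 of 72 subunits with a mean of at least 10 CPM, and the highest sheared library was replicate 2 for 49. A spread of at least 1.5 times between libraries held for 10 subunits (13.9%) in sheared cells and 11 (15.3%) in static cells at 12 h, where 16.4% and 4.94% of all genes at that level had it.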
